A study of Homo sapiens with 9 samples.

Results

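The genes described here are those of the interferon response and of cellular RNA sensing. They were listed by their known place in the pathway and not by a threshold on measured values. The choice was made with earlier results of these data known. The list holds 44 genes (45 symbols, of which DDX58 and RIGI name the same gene), and 34 of them carried a named probeset among the 14884 genes of the array table. The other 10, OAS1, OAS2, OAS3, IFNB1, STAT2, MX1, CMPK2, IFI6, IFI27 and PARP9, had no probeset under their name in the annotation used and were not analysed here. Transcripts were measured on 9 arrays of ZR-75-1, an established estrogen receptor-positive breast cancer line. All cells received a lipid transfection reagent: 3 cultures got no RNA with it (mock), 3 got a non-specific negative control RNA at 50 nM, and 3 got miR-150-5p mimic, a synthetic copy of that microRNA, at 50 nM. Medium was replaced at 24 h and RNA was taken at 48 h. The labels give triplicate transfections of a single line and do not say whether these were separate experiments, so the p-values describe variation among these cultures only, and some of it may be technical.

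Double-stranded RNA in the cytoplasm is sensed by the helicases RIG-I (RIGI) and MDA5 (IFIH1), which signal through MAVS on mitochondria, and in endosomes by TLR3. The signal activates IRF3 and IRF7, which switch on interferon beta, and secreted interferon then acts through a complex that contains STAT2 and IRF9 to induce a large set of antiviral genes, the sensors among them. USP18 removes the ubiquitin-like protein ISG15 from its targets and blocks the interferon receptor, so it ends the response that induces it. Short synthetic duplexes can set off this pathway in some cell types, which is why a non-targeting RNA and a mock arm are commonly run beside a microRNA mimic.

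The interferon-induced genes share a promoter element, the interferon-stimulated response element, whose core (GAAA, any 2 bases, GAAA) was searched on either strand, overlaps allowed, in RefSeq promoter windows (GRCh38.p14, 250 bases before to 50 bases after each transcript start). It was present for 22 of the 34 listed genes that have an entry in that table, and for 17 of the 25 of these with a named probeset, against 3.57% of all 35116 promoters and 4.38% of 27305 genes. The STAT site TTCNNNGAA, which overlaps the core in some promoters such as those of BST2 and EPSTI1, was present for 11 of the 34, against 7.66% of all promoters and 9.38% of genes. A match is a description of the letters in these windows and not evidence of binding. DHX58, OAS2, OASL, IRF3, IRF7, USP18, IFIT2, IFITM2, MX2 and TRIM22 have no entry in the table.

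**Figure D1:**
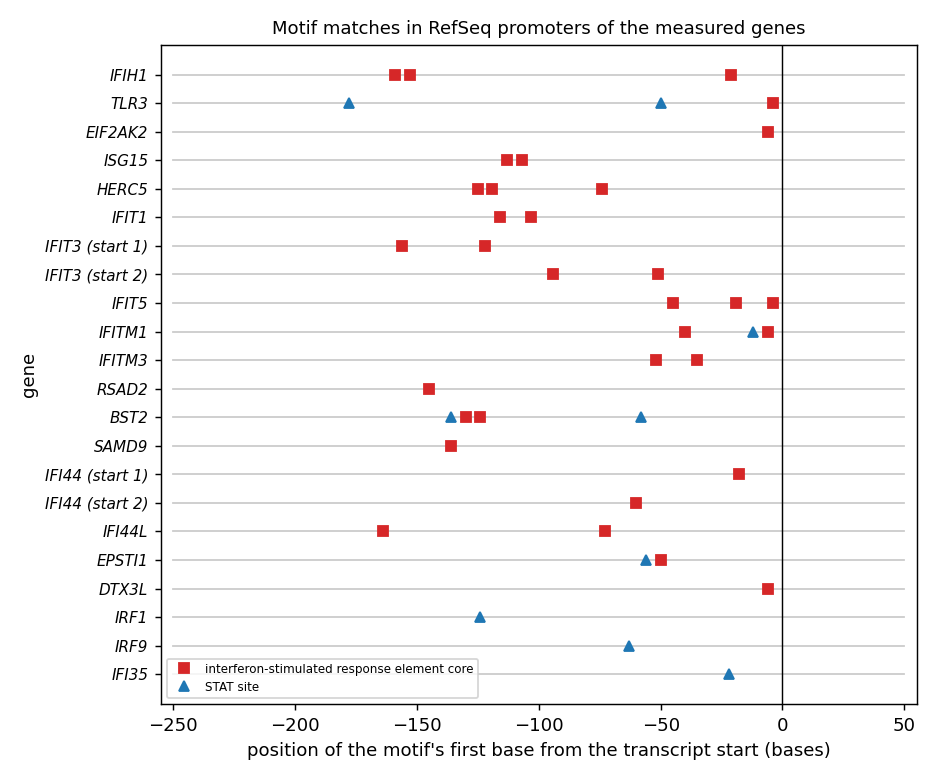
Positions of the interferon-stimulated response element core (red squares) and the STAT site (blue triangles) in the promoters of the measured genes, as distance in bases of the motif's first base from the transcript start (0), 1 row per gene or transcript start with a match. In each of the 17 genes that hold it, the core begins between 164 and 4 bases before a transcript start.

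The promoters of TLR3, IFIH1, SAMD9 and DTX3L are shown because these are the genes holding the core whose transcripts had the lowest p-values between mimic and negative control arrays, as described further on. TLR3 is the endosomal receptor of double-stranded RNA (chr4:186068906-186069205, plus strand), IFIH1 the helicase MDA5 (chr2:162318635-162318934, minus strand), SAMD9 an antiviral factor (chr7:93117930-93118229, minus strand) and DTX3L a ubiquitin ligase that acts with PARP9 (chr3:122564088-122564387, plus strand). All windows are from GRCh38.p14 and read 5′ to 3′ on the gene's strand, with the core in capitals. The IFIH1 window holds 3 matches, of which those starting 159 and 153 bases before the start overlap, and the other windows hold 1 match each.
TLR3: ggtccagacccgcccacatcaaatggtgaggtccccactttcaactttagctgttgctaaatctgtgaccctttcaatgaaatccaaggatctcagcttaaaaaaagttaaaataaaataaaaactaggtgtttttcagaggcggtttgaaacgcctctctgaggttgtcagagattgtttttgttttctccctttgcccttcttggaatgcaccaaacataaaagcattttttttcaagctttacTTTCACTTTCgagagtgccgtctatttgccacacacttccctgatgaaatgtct
IFIH1: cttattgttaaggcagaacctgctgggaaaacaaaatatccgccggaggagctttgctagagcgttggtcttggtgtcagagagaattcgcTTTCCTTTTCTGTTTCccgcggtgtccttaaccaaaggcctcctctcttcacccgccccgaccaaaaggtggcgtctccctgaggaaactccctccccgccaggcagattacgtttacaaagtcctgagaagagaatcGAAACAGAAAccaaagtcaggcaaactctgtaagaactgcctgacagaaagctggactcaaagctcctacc
SAMD9: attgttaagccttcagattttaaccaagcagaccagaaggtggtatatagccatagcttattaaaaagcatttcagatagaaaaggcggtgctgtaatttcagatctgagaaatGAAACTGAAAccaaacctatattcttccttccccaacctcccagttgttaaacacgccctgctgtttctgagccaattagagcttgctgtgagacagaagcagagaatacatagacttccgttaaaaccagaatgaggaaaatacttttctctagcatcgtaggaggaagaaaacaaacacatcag
DTX3L: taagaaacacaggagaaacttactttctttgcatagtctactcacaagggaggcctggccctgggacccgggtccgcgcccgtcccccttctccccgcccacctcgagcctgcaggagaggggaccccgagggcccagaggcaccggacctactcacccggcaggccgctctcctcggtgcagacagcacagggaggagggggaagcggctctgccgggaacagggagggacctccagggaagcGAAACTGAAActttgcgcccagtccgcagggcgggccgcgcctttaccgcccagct

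Among the measured markers of cell types, those of luminal breast epithelium gave the strongest signal. All 9 measured luminal markers lay above the median of all genes (5.44 on the log2 scale), from 6.95 for KRT8 to 12.1 for KRT18, with ESR1 at 8.71. Of 12 measured markers of leukocytes, fibroblasts and endothelium, 11 lay below that median, and the exception was the lysosomal gene CD68 (6.42). These 12 were 4 of 11 listed leukocyte, 3 of 9 fibroblast and 5 of 7 endothelial markers. The others, PTPRC and COL1A1 among them, had no named probeset, and a position below the median does not show absence. None of the 12 passed in any comparison in limma's test; of the luminal markers ESR1 passed, higher with mimic by 0.46 ± 0.07 (SE) against the negative control (adjusted p = 0.0295) and by 0.45 ± 0.07 against mock (adjusted p = 0.0406). Medians of single arrays ran from 4.22 to 4.27, while the mean over all probesets was 4.80 on mimic replicate 3 and between 4.74 and 4.75 on the other 8 arrays.

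In these cells most measured probesets of the pathway lay below the median of all genes in their mean over the 9 arrays. Those above the median of all genes included 3 of the 6 measured sensors, the adaptor MAVS, BST2 and USP18. Of the 34 measured genes, 22 had a mean log2 intensity over the 9 arrays below the median of all genes and 12 above it. By definition 7442 of all 14884 genes lay below that median. Probesets differ in affinity and length, and the table holds no background value, so a position below the median says that a probeset's signal was weak and not that its transcript was absent. EIF2AK2, the kinase PKR that stops translation when it binds double-stranded RNA, had the highest mean (8.41, range 8.16 to 8.52). MAVS followed with 8.24 (8.14 to 8.47) and BST2, the virus-tethering membrane protein tetherin, with 7.90. BST2 lay at 7.92, 7.91 and 7.93 in mock, 7.86, 8.02 and 7.90 with negative control RNA and 7.83, 7.88 and 7.88 with mimic, with the mimic arrays just below mock. USP18 (7.63), RIGI (7.36), IFITM2 (6.85), IRF3 (6.70), IFIH1 (6.42), HERC6 (6.26), ISG15 (6.11), DTX3L (5.89) and IRF9 (5.88) were the others above the median. The dimmest probesets were those of induced genes. IFIT3 had a mean of 2.43, IFIT1, a translation inhibitor that recognises foreign RNA, 2.57, IFI44 2.77 and IFIT2 2.88. IFIT3 was at 2.49, 2.55 and 2.42 in mock, 2.59, 2.31 and 2.29 with negative control RNA and 2.27, 2.39 and 2.51 with mimic, with overlap of all groups. IFI44 was at 2.81, 2.80 and 2.70 in mock, 2.90, 2.80 and 2.87 with negative control RNA and 2.72, 2.54 and 2.80 with mimic, where mimic replicate 2 was the lowest array. RSAD2, the radical SAM enzyme viperin, had 3.31 and MX2, a dynamin-like GTPase, 4.44. IRF9, with 5.88, lay just above the median of all genes and IFIT5, with 5.28, just below it.

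**Figure D2:**
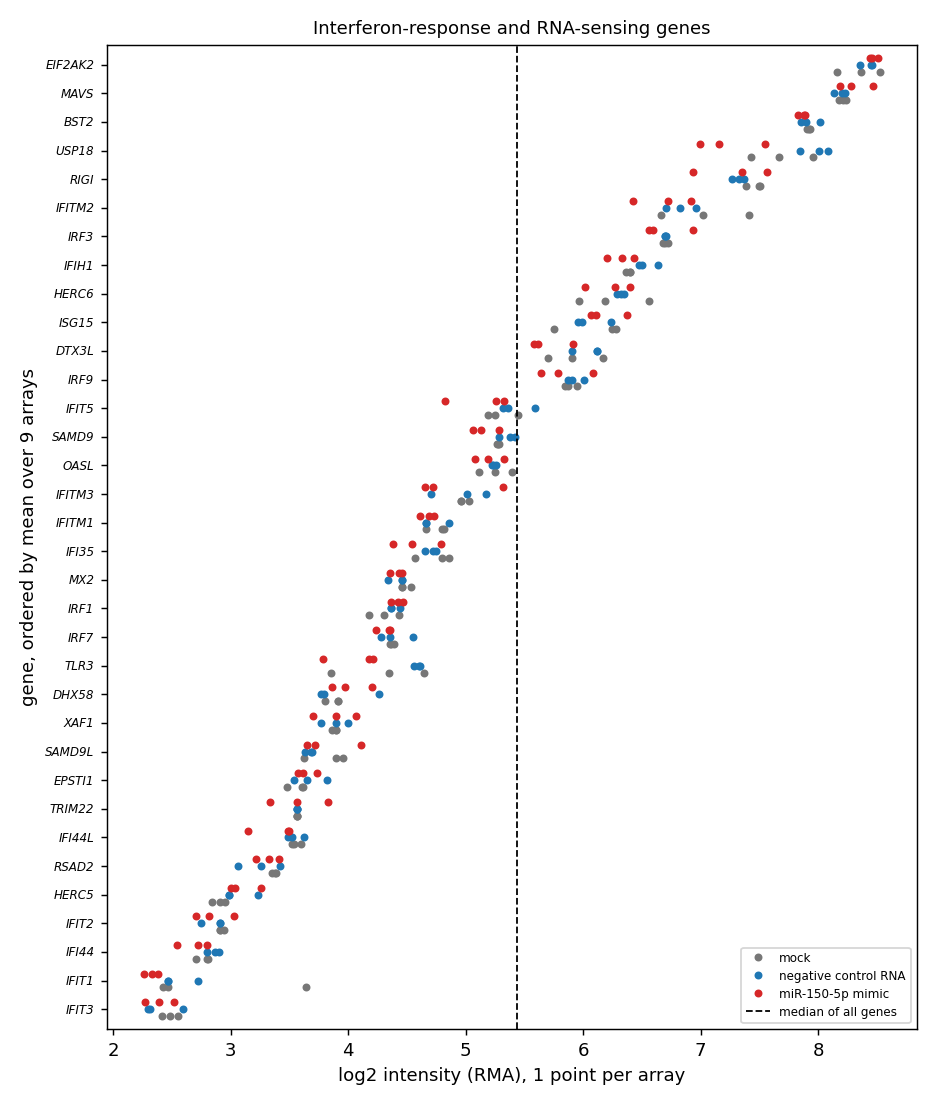
Log2 intensity of the 34 measured genes on each of the 9 arrays (grey, mock; blue, negative control RNA; red, mimic), ordered by their mean, with the median of all 14884 genes as a dashed line at 5.44. The points of the 3 groups lie close together for most genes, 22 of which have a mean left of the line; IFIT1 on mock replicate 3 (3.64) stands away from its other arrays.

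Some probesets carried repeated values, among them probesets above the median such as that of IRF3, with 1 value on 3 arrays. For 16 of the 34 genes (47.1%) the deposited table gives the same value on 2 or more arrays, as it does for 57.1% of all genes. A value shared by 4 or more arrays was found for 4 of the 34 (11.76%) and for 16.25% of all genes. TRIM22, an antiviral ubiquitin ligase, is listed at 3.56 on 7 of 9 arrays, and the others were 3.33 on mimic replicate 2 and 3.83 on mimic replicate 3. MX2 is listed at 1 value on 5 arrays, and IFIT2 and XAF1, a proapoptotic interferon-induced gene, on 4 each. Differences of these genes between groups therefore rest on few distinct values.

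The first question was whether transfected RNA as such switched the pathway on at 48 h, the only time measured. None of its 34 measured genes passed in either form of that comparison. The listed genes without a named probeset, IFNB1, OAS1 and MX1 among them, could not be examined. With negative control RNA against mock, 0 of 34 genes passed in limma's test at an adjusted p of 0.05, and 0 had an unadjusted p under 0.05. Over all genes 0% passed and 4.18% had an unadjusted p under 0.05. The 34 log2 changes ran from -0.29 (IFIT1) to 0.31 (TLR3), 18 positive and 16 negative, with a median of 0.0019 beside a median of 0.0072 over all genes. With each array centred on its median, 23 were positive and 11 negative. The 95% interval of the change stayed below a 2-fold rise for 34 of 34 genes, as it did for 99.8% of all genes, and below a 1.5-fold rise for 32, as for 96.8% of all genes. The 2 exceptions were TLR3, whose interval reached a 1.65-fold rise, and USP18, which reached 1.57-fold. Groups that did not overlap were found for 3 genes, IFIH1 and HERC5 (higher with negative control RNA) and RIGI (lower), which is 8.82% beside 8.1% of all genes. The limits are on probeset intensity, which understates changes of weakly detected transcripts.

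Among the sensors, RIGI had log2 intensities of 7.50, 7.39 and 7.50 in mock, 7.33, 7.37 and 7.27 with negative control RNA, and 7.56, 7.35 and 6.93 with mimic (replicates 1 to 3). The negative control arrays lay below all mock arrays, while the mimic arrays spanned both groups. Its change was -0.14 ± 0.14 (SE, n = 3 arrays per group) for negative control against mock, with a limma adjusted p = 0.976. IFIH1 went the other way: 6.37, 6.40 and 6.40 in mock, 6.50, 6.48 and 6.64 with negative control RNA, and 6.33, 6.21 and 6.43 with mimic. All 3 negative control arrays lay above all mock arrays, by 0.15 ± 0.08 on the log2 scale (adjusted p = 0.976). EIF2AK2 lay at 8.16, 8.37 and 8.52 in mock, 8.36, 8.45 and 8.46 with negative control RNA and 8.44, 8.51 and 8.46 with mimic, so that both RNA groups lay inside the range of the mock arrays. DHX58, the helicase LGP2 that tunes the other helicases, was dim, at 3.81, 3.91 and 3.91 in mock, 3.80, 4.26 and 3.77 with negative control RNA and 3.97, 3.86 and 4.20 with mimic, and its groups overlapped. RSAD2, an effector among the 5 genes of lowest p in this comparison, lay at 3.38, 3.38 and 3.35 in mock, 3.26, 3.42 and 3.06 with negative control RNA and 3.41, 3.21 and 3.33 with mimic, and its groups overlapped. OASL, which enhances RIG-I signalling, differed by -0.01 between negative control and mock and by -0.05 between mimic and mock.

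Taking the 6 arrays with RNA together against the 3 mock arrays, as the mean of the 2 RNA groups minus mock, gave the same picture. None of the 34 genes passed in limma's test (0% of all genes did), and 0 had an unadjusted p under 0.05, against 5.76% of all genes. The median change was -0.02 beside 0.0085 over all genes, with 13 positive and 21 negative. HERC5, the main ligase that attaches ISG15 to new proteins, had the lowest p: it lay at 2.84, 2.95 and 2.91 in mock and at 3.23, 2.98, 2.98, 3.04, 3.26 and 3.00 on the RNA arrays. All 6 RNA arrays thus lay above all 3 mock arrays, by 0.19 ± 0.08 (SE), with an adjusted p = 0.860, at an intensity in the 11.4th percentile of all genes. HERC5 was the only gene of the 34 whose RNA and mock arrays did not overlap, as held for 2.07% of all genes. The next lowest p-values were those of IFIT1 (-0.41 ± 0.23), IFITM2, which blocks virus entry (-0.27 ± 0.16), IRF1, an interferon-induced transcription factor (0.10 ± 0.07), and RIGI (-0.16 ± 0.12), none of which passed (adjusted p from 0.865 to 0.887). IRF1 was measured at 4.43, 4.18 and 4.31 in mock, 4.44, 4.37 and 4.37 with negative control RNA and 4.47, 4.37 and 4.42 with mimic, so that mock replicate 1 lay among the RNA arrays.

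The size of the IFIT1 difference rested on 1 array. Its log2 intensity was 3.64 on mock replicate 3, against 2.43 and 2.47 on the other mock arrays, 2.47, 2.47 and 2.72 with negative control RNA and 2.38, 2.26 and 2.33 with mimic. Without mock replicate 3 the change of the RNA arrays against mock was -0.0090 in place of -0.41, and that of the negative control against mock was 0.11 in place of -0.29. IFIT2 (2.91 on that array) and IFIT3 (2.42), its neighbours in function, did not stand out there.

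**Figure D3:**
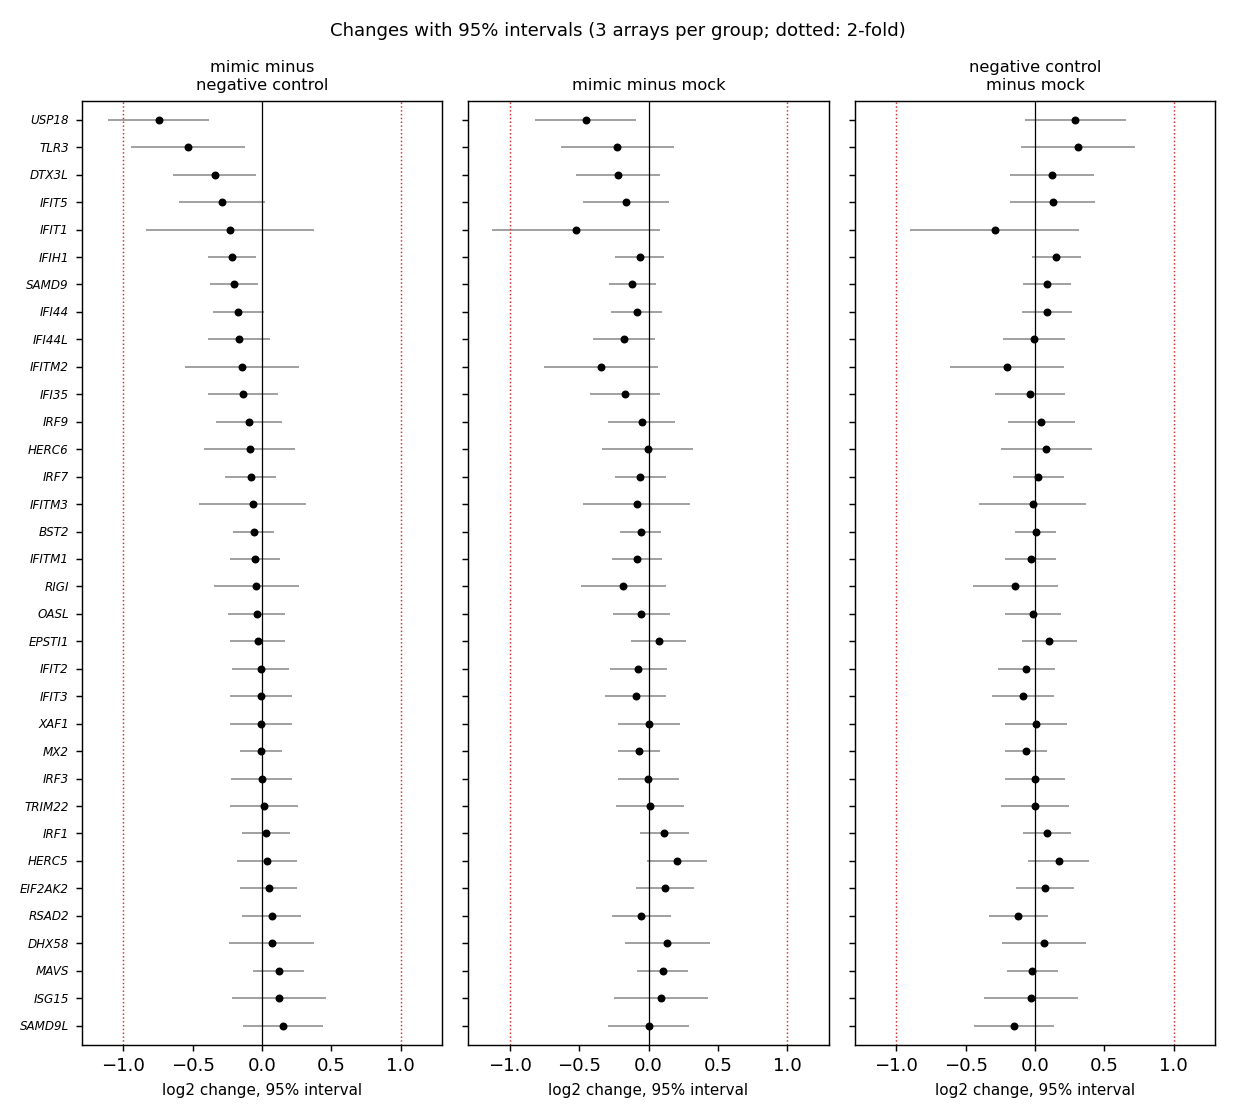
Log2 change of each of the 34 genes with its 95% interval (points and bars, limma, 3 arrays per group) for mimic minus negative control, mimic minus mock and negative control minus mock, ordered by the first. All upper limits lie below a 2-fold rise (dotted line at 1), and the lower limits of USP18 against the negative control and of IFIT1 against mock pass a 2-fold fall.

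The second question was whether the mimic differed from a control RNA at the same dose, and here USP18 had the largest difference of the 34 genes without passing. USP18 was measured at 7.67, 7.43 and 7.96 in mock, 8.08, 7.84 and 8.00 with negative control RNA and 7.00, 7.16 and 7.55 with mimic. Every mimic array lay below every negative control array, and mimic replicate 3 lay inside the range of mock. The change against the negative control was -0.74 ± 0.16 on the log2 scale (SE, n = 3 arrays per group; 95% interval from -1.11 to -0.38), a level 1.67-fold lower, with a limma adjusted p = 0.0831. In order of p it stood at rank 200 of 14884 genes. Against mock the difference was -0.45 ± 0.16 (adjusted p = 0.366), and the negative control stood 0.29 ± 0.16 above mock (adjusted p = 0.976). Over the 17 alternative settings the change against the negative control ran from -0.90 to -0.62, with adjusted p-values from 0.0303 to 0.263. It passed in 1 of them, when only the 7442 genes above the median intensity were tested (adjusted p = 0.0303).

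**Figure D4:**
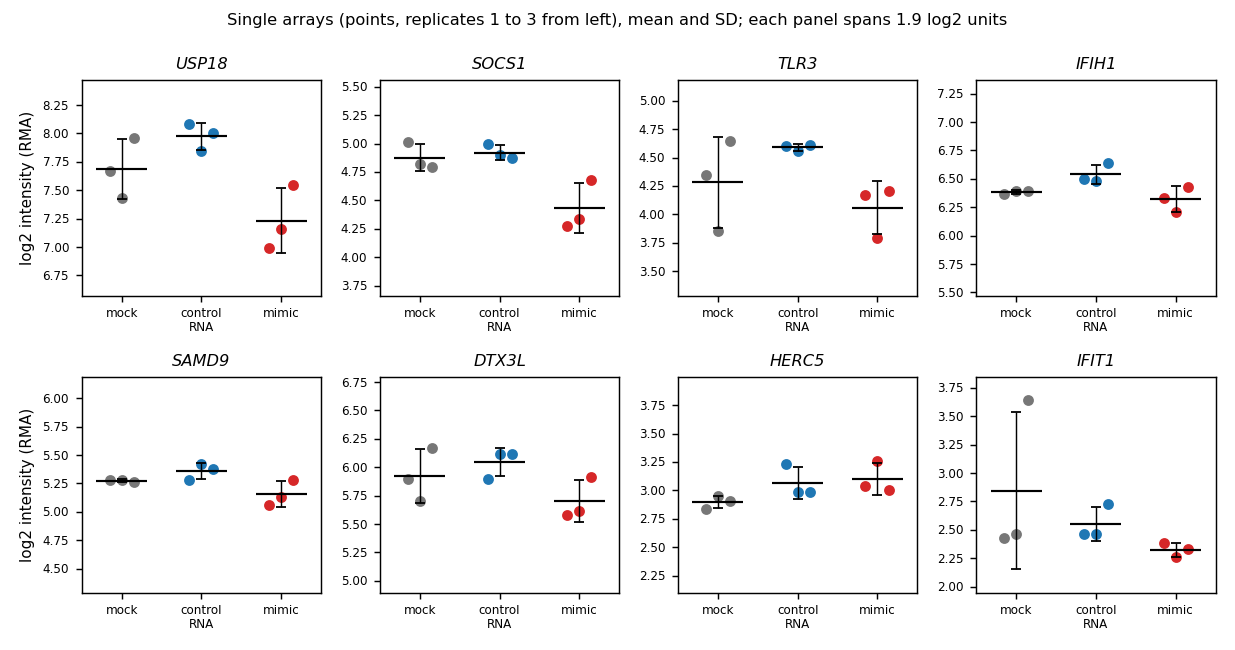
Log2 intensity on single arrays (points, replicates 1 to 3 from left in each group) with the mean (line) and SD (bar, n = 3) for USP18, SOCS1, TLR3, IFIH1, SAMD9, DTX3L, HERC5 and IFIT1; every panel spans the same 1.9 log2 units. The mimic arrays of USP18, TLR3, IFIH1, SOCS1 and IFIT1 lie below all negative control arrays, and IFIT1 stands high on mock replicate 3 alone.

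In all, 0 of the 34 genes passed for mimic against negative control, where 0.551% of all genes did. An unadjusted p under 0.05 was reached by 5 genes, or 14.7% of the 34, beside 12.6% of all genes in either direction. All 5 were lower with mimic, while 6.39% of all genes had such a p and were lower. Groups that did not overlap were found for 4 genes, USP18, TLR3, IFIH1 and IFIT1, each lower with mimic, which is 11.8% against 16.4% of all genes (8.01% lower). TLR3 lay at 4.34, 3.85 and 4.65 in mock, 4.60, 4.56 and 4.61 with negative control RNA and 4.17, 3.79 and 4.21 with mimic. The negative control arrays were tightly grouped and the mock arrays spanned nearly the whole range. Its change against the negative control was -0.53 ± 0.18 (adjusted p = 0.270), and against mock -0.22 ± 0.18 (adjusted p = 0.698). The values against mock depended on single mock arrays: for the mimic it was -0.44 without mock replicate 2 and -0.042 without mock replicate 3, and for the negative control, at 0.31 with all arrays, 0.095 and 0.49. IFIH1, with the values given above, changed by -0.22 ± 0.08 (adjusted p = 0.302), and by -0.06 ± 0.08 against mock.

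SAMD9 and DTX3L were the other genes among the 5 with the lowest p. SAMD9 was measured at 5.28, 5.28 and 5.26 in mock, 5.28, 5.42 and 5.38 with negative control RNA and 5.06, 5.13 and 5.28 with mimic. Mimic replicates 1 and 2 lay below all control arrays, and mimic replicate 3 did not. The change was -0.20 ± 0.08 (adjusted p = 0.321). DTX3L was at 5.90, 5.70 and 6.17 in mock, 5.90, 6.12 and 6.12 with negative control RNA and 5.58, 5.62 and 5.91 with mimic, a change of -0.34 ± 0.13 (adjusted p = 0.341). Here too mimic replicates 1 and 2 were the lowest of the 9 arrays, and mimic replicate 3 lay among the controls. For all 5 genes (USP18, TLR3, IFIH1, SAMD9 and DTX3L) the negative control mean was above the mock mean, so that each differed less from mock than from the negative control. The 5 were picked for a low p against the negative control, and all were lower with mimic. That choice favours genes with high negative control values, so this order of means is not a separate result.

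By role, differences of the mimic from the negative control ran in both directions. Of the 6 measured sensors, TLR3, IFIH1, RIGI (-0.04) and OASL (-0.04) were negative and EIF2AK2 (0.05) and DHX58 (0.07) positive, with a median of -0.04. Without mimic replicate 3 the value of RIGI was 0.14 and that of DHX58 -0.024. MAVS stood at 0.12 ± 0.08, from 8.17, 8.24 and 8.22 in mock, 8.20, 8.14 and 8.23 with negative control RNA and 8.18, 8.28 and 8.47 with mimic, the last being mimic replicate 3, without which the value was 0.041. The 4 measured transcription factors differed by -0.09 (IRF9) to 0.03 (IRF1), and IRF3 by -0.00265. IRF3 lay at 6.59, 6.56 and 6.94 and IRF9 at 5.78, 5.64 and 6.08 on the mimic arrays, and without mimic replicate 3 their differences were -0.12 and -0.22. In the ISG15 pathway, beside -0.74 for USP18, ISG15 was at 0.12 ± 0.15, HERC5 at 0.03 ± 0.10 and HERC6 at -0.09. ISG15 itself was measured at 6.24, 6.28 and 5.75 in mock, 5.99, 6.24 and 5.96 with negative control RNA and 6.37, 6.11 and 6.06 with mimic, with full overlap of the groups. Of 13 measured antiviral effectors 10 were negative, with a median of -0.05 and a range from -0.29 (IFIT5) to 0.15 (SAMD9L). All 6 other interferon-induced genes (DTX3L, IFI44, IFI44L, IFI35, EPSTI1 and XAF1) were negative, the last at -0.0042, with a median of -0.15. None of these groups held a gene that passed.

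Over the whole list 25 of 34 changes against the negative control were negative, with a median of -0.05, while over all genes 46.6% were negative and the median was 0.01. Quantile normalization gave 28 negative and centring of the arrays 27. These counts were carried unequally by the mimic arrays. The mean of the 34 genes lay 0.08 and 0.13 below their mock level on mimic replicates 1 and 2 (-0.08 and -0.13) and at -0.0056 on mimic replicate 3, where all genes together stood at 0.04. The negative control arrays lay at 0.0025, 0.02 and 0.02 and the mock arrays between -0.03 and 0.04. Without mimic replicate 3 the median change against the negative control was -0.10, with 24 of 34 negative and 0 called; without mimic replicate 1 it was -0.01, with 19 negative. Mimic replicate 2 was the lowest array of its group for 18 of the 34 genes, mimic replicate 1 for 11 and mimic replicate 3 for 5. What sets mimic replicate 3 apart was not tested.

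**Figure D5:**
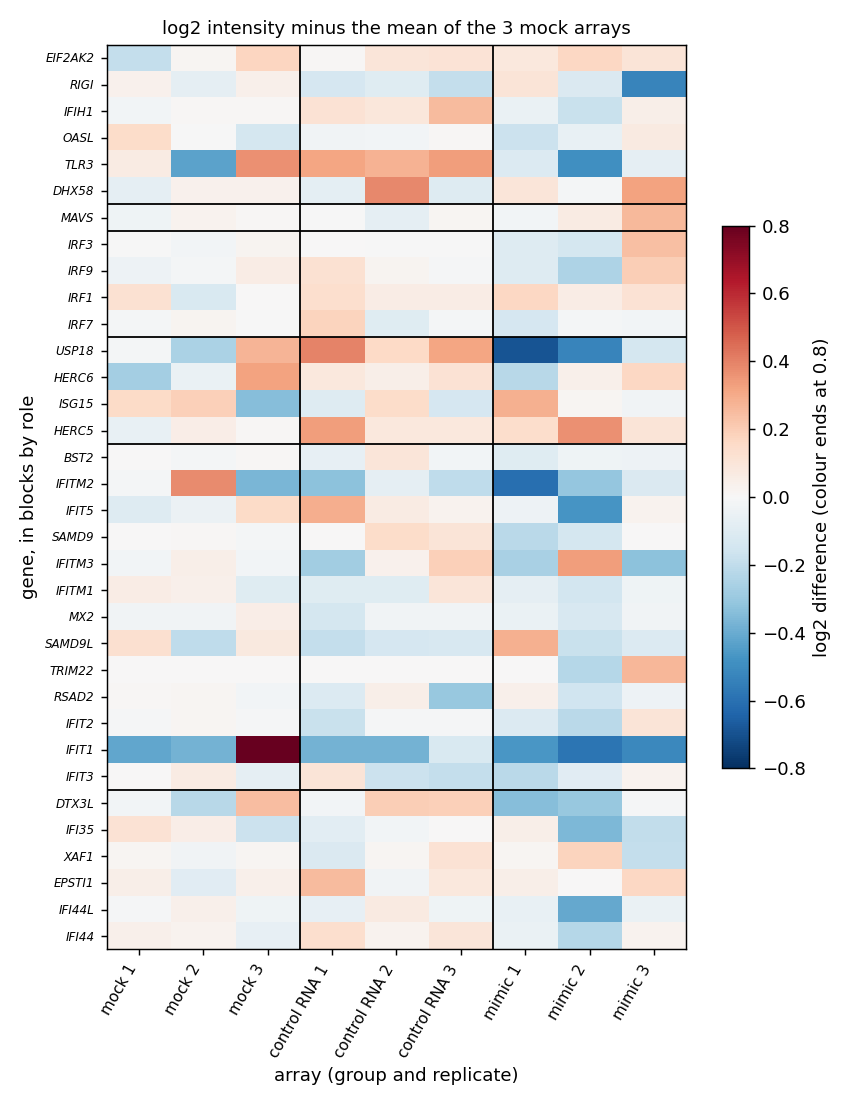
Log2 intensity of each measured gene on each array minus the mean of the 3 mock arrays (colour; red higher, blue lower, ends of the scale at 0.8), with genes in blocks by role (sensors, adaptor, transcription factors, ISG15 pathway, antiviral effectors, other interferon-induced genes). The mean over all cells of an array is lowest on mimic replicate 2 (-0.13), and IFIT1 on mock replicate 3 is the darkest red cell.

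Against mock, the other control, no gene of the 34 passed for the mimic either, where 0.302% of all genes did. USP18 alone had an unadjusted p under 0.05, against 10.7% of all genes. After it the lowest p-values were those of HERC5 (0.20 ± 0.10, adjusted p = 0.503), IFIT1 (-0.52 ± 0.27, and -0.12 without mock replicate 3), IFITM2 (-0.34 ± 0.18, adjusted p = 0.544) and IFI44L (-0.17 ± 0.10, adjusted p = 0.575). IFITM2 was measured at 7.02, 7.41 and 6.67 in mock, 6.71, 6.96 and 6.83 with negative control RNA and 6.42, 6.72 and 6.92 with mimic. Its 9 arrays overlapped between all groups, with mock replicate 2 the highest and mimic replicate 1 the lowest. Without mock replicate 2 its change was -0.15 for mimic against mock and -0.082 for RNA against mock, and without mock replicate 3 it was -0.53 and -0.45. IFI44L was at 3.54, 3.59 and 3.52 in mock, 3.49, 3.63 and 3.52 with negative control RNA and 3.49, 3.15 and 3.50 with mimic, with mimic replicate 2 apart from the rest, without which the change was -0.057. Groups that did not overlap were found for HERC5 (higher) and for IFIT1, BST2 and IFI44L (lower), 4 of 34 or 11.8%, against 12.7% of all genes. Of the 34 changes 24 were negative, with a median of -0.06 beside 0.01 over all genes, and no interval reached a 1.5-fold rise. The mimic arrays enter both comparisons, which are therefore not independent.

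Other genes of the pathway, 61 measured of 130 listed, gave 0 calls in any of the 4 comparisons in limma's test. An unadjusted p under 0.05 was reached by 10 of the 61 for mimic against negative control (4 higher, 6 lower), 10 for mimic against mock, 5 for negative control against mock and 7 for RNA against mock, which is 16.4%, 16.4%, 8.20% and 11.5% of them beside 12.6%, 10.7%, 4.18% and 5.76% of all genes. Non-overlapping groups were found for 19.7%, 21.3%, 18.0% and 11.5% of the 61, in the same order of comparisons. Over all genes the shares were 16.4%, 12.7%, 8.1% and 2.07%. For RNA against mock that is 7 of the 61 genes, 5 higher and 2 lower on the RNA arrays, and the reason was not tested. The 5 higher ones include IFNGR1, IRF2 and MYD88 (0.19 ± 0.06, limma adjusted p = 0.773), and the 2 lower ones include ZBP1. IRF2 and MYD88 lie outside the rule for naming genes and were chosen after their values were seen. Among 9 measured receptors and signalling genes, SOCS1, an inhibitor of JAK kinases that is induced by interferon and other cytokines, had the lowest p. SOCS1 lay at 5.01, 4.82 and 4.79 in mock, 4.99, 4.90 and 4.87 with negative control RNA and 4.27, 4.34 and 4.68 with mimic. All 3 mimic arrays were below all 6 control arrays, by -0.49 ± 0.11 against the negative control (adjusted p = 0.0999) and -0.44 ± 0.11 against mock (adjusted p = 0.186). Without mimic replicate 3 it passed against the negative control (-0.62, adjusted p = 0.0480). USP18 and SOCS1 both act as brakes on interferon signalling, and neither passed in the fit of all 9 arrays. Each was named for the lowest p of its list for mimic against negative control, and a shared change of such brakes was not tested.

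Among 18 further nucleic acid sensing genes the lowest p against the negative control was that of CYLD, a deubiquitinase that restrains RIG-I and NF-kB signalling (0.33 ± 0.11, adjusted p = 0.256). For RNA against mock it was that of ZBP1, a sensor of Z-form nucleic acids: 4.54, 4.59 and 4.45 in mock, 4.27, 4.07 and 4.25 with negative control RNA and 4.25, 4.18 and 3.97 with mimic. All 6 RNA arrays lay below all mock arrays, by -0.36 ± 0.08 (adjusted p = 0.627), at a mean below the median intensity. Of 26 further interferon-induced genes TRIM5, a restriction factor of retroviruses, had the lowest p for mimic against negative control (-0.31 ± 0.08, adjusted p = 0.133), and differed from mock by -0.01 ± 0.08, since the negative control stood 0.30 ± 0.08 above mock (adjusted p = 0.976). NMI, which binds STAT proteins, had the lowest p for RNA against mock (0.23 ± 0.07, adjusted p = 0.770), with 4.34, 4.34 and 4.23 in mock, 4.77, 4.65 and 4.53 with negative control RNA and 4.33, 4.43 and 4.49 with mimic. The interferon-induced chemokine CXCL10, outside the rule for naming genes and chosen after its value was seen, differed by -0.24 ± 0.10 between the RNA and mock arrays (adjusted p = 0.860). No member of the list of 20 other interferon genes had a named probeset.

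The NF-kB arm, which the same sensors can activate, was examined through 8 measured targets, 7 of them below the median intensity. For RNA against mock 6 of the 8 were positive and 0 passed, with a median of 0.08. TNF had the lowest p (0.14 ± 0.06, adjusted p = 0.860), and for mimic against negative control it was CXCL3, a neutrophil chemokine (0.35 ± 0.12, adjusted p = 0.263). CXCL3 lay at 2.39, 2.72 and 2.66 in mock, 2.56, 2.54 and 2.86 with negative control RNA and 3.08, 2.87 and 3.07 with mimic, so all mimic arrays were above all control arrays at a low intensity. In the receptors group the lowest p for RNA against mock was that of IFNGR1, a chain of the interferon gamma receptor (0.21 ± 0.09, adjusted p = 0.860).

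Within groups, the genes of the pathway were weakly correlated. Over the deviations of the 9 arrays from their group means, the mean pairwise correlation was 0.10 among the 12 genes above the median intensity and 0.07 among all 34, beside 0.04 among the 7442 genes above the median and 0.01 among all genes. These are correlations over the same 9 arrays, which also share their scaling, and are given as a description.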

How the data were processed

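The 9 samples were measured on Affymetrix Human Gene 2.0 ST arrays, with 3 arrays per group. The deposited table gives 1 log2 value for each of 53617 probesets; the authors computed these by RMA, a method that corrects background, quantile-normalizes arrays and summarises probes, per the submitters' processing notes. RMA version and genome build were not given in the sources used here. An annotation table of the platform names 16098 probesets; the probeset with the highest mean stood for a gene (14884 genes; each of the 34 measured genes had 1 probeset). The log2 values were fitted without further normalization or filter in R 4.3.3 with limma 3.58.1 (lmFit, eBayes, 6 residual degrees of freedom), with Benjamini-Hochberg adjustment over all genes and a threshold of 0.05. Intervals are limma's 95% intervals. With 3 arrays a group, 0.1 is the smallest p of an exact two-sided permutation test. The script was tested on simulated data. Values on single arrays were given for the 5 genes of lowest p in each comparison, for USP18 and for the main sensors. From each further list the gene of lowest p was named. The genes and lists were chosen with earlier results of these data known. Precision is limited by the number of arrays. In all, 17 alternatives were run.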

Additional observations from a re-analysis of the deposited data

How the results depend on the processing

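The counts of 0 pathway-list calls held in all alternatives run, with these exceptions for mimic against negative control: 1 of the 34 genes (USP18, -0.74, adjusted p = 0.0303) passed when only genes above the median intensity were tested, and 1 of the 61 further genes (SOCS1) passed in 1 of the 9 fits that leave out an array, so that this count ran from 0 to 1. Leaving out an array moved the median change of the 34 genes between -0.10 and -0.011 against the negative control and between -0.11 and -0.034 for mimic against mock. Over all genes, the count of calls for mimic against negative control was 82, and 263 with dim genes left out, 169 with eBayes trend and robust options, 8 with the arrays of the 2 groups alone and 7 to 121 with an array left out; for mimic against mock it was 45, and 102, 1 (arrays of the 2 groups alone) and 1 to 10. With the replicate number as a block, 16 and 3 genes passed, and 0 of the 34. Same-numbered arrays correlated between -0.06 and 0.13 in their deviations, so the numbers were not taken as pairs. Some changes turned sign in fits with 1 array left out. Ranges are given here only for the genes followed through the alternatives, and other genes of the 34 turned sign too. Among these were ISG15 and HERC6 for mimic against mock. Another was IFIT1 for negative control against mock (-0.29 with all arrays, 0.11 without mock replicate 3). The ranges were -0.024 to 0.23 (DHX58) and -0.18 to 0.14 (RIGI) for mimic against negative control, -0.060 to 0.041 (TRIM5) for mimic against mock, -0.093 to 0.15 (DHX58), -0.024 to 0.16 (EIF2AK2), -0.0026 to 0.11 (CYLD) and -0.042 to 0.13 (CXCL3) for negative control against mock, and -0.00075 to 0.18 (EIF2AK2), -0.17 to 0.22 (TLR3) and -0.21 to 0.055 (USP18) for RNA against mock; the cause was not tested. The correlation within groups was 0.10 among the genes above the median intensity and 0.070 among all measured. Weak signal over background limits what can be seen for the 22 genes below the median intensity.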
